A study of Mus musculus with 72 samples.

Results

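The 40 mouse genes described here build, cross-link, remodel or regulate the extracellular matrix of the kidney, together with the transforming growth factor beta (TGF-beta) pathway that controls much of it. They were taken from a list of gene symbols and looked up in the probe table of the array. Where several probes carried a symbol, the probe with the highest mean intensity over all arrays was used. A gene was counted as measured in a tissue when its probe reached an intensity of at least 150 (7.23 on the log2 scale) on all 3 arrays of any one group. Of the 40 genes, 37 had a probe and 33 were measured, of 16593 genes with a named probe in all. Fn1, Fbn1 and Smad7 were not analysed here, and Col5a2, Postn, Timp1 and Tagln stayed below that floor in every group.

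TGF-beta ligands bind a pair of kinase receptors at the cell surface, which activate SMAD transcription factors that turn on genes for collagens and other matrix proteins. In the kidney, interstitial fibroblasts, pericytes, mesangial cells and the epithelium make matrix, basement membranes underlie every tubule and capillary, and an excess of fibrillar collagen is the hallmark of renal fibrosis. The kidney is also a dose-limiting organ in radionuclide therapy, in which renal fibrosis is a known late effect.

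The study profiled kidney RNA of Balb/c mice, from cortex and medulla apart, on Illumina bead arrays after internal exposure to lutetium-177 (177Lu), a beta-emitting radionuclide. The groups were controls and mice with an absorbed dose of 0.3, 3 or 10 Gy, each at 1.5, 3 and 4.5 months, which makes 24 groups of tissue, dose and time with 3 arrays in each. The labels of the controls give no absorbed dose, although they carry the same nuclide entry as the others, and no genotype, sex or age is given. Nothing in the labels says that the 3 arrays of a group are 3 animals, so p-values measure the spread between arrays only, which may be technical.

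One array was left out of all groups, the cortex control at 1.5 months numbered 3, so 35 cortex and 36 medulla arrays were used. Its mean correlation with the other arrays of its tissue was 0.653, against at least 0.962 for the rest. Its mean log2 level over 10 proximal tubule markers was 7.66, against 11.76 to 11.95 on the 8 other cortex controls, which goes against its label. On the arrays used, podocyte markers (4 of 8 listed were measured) averaged 9.11 to 9.40 in control medulla and 9.76 to 10.23 in control cortex, without overlap. Proximal tubule markers (10 of 12 measured) averaged 11.02 to 11.56 in control medulla and 11.76 to 11.95 in control cortex, so the medulla samples also held proximal tubule RNA. All values below are log2 intensities of the normalized data, a difference of 1 is a doubling, and errors are standard errors unless stated otherwise. Tests are those of limma, a linear model with a shared variance estimate, fitted to all genes measured in a tissue, with Benjamini-Hochberg adjustment over all of them. In whole tissue, fewer cells of a type and less RNA per cell cannot be told apart.

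The baseline of the unexposed kidney was described first, by comparing the 9 control medulla arrays with the 8 control cortex arrays. Of the 33 measured members, 15 were higher in the medulla, 3 were lower there and 15 did not pass an adjusted p of 0.05 in limma. The members higher in medulla include Thbs1, which passed the intensity floor in the medulla alone, so the filter favoured that call. Among all 9000 genes in this fit 37.4% passed, with 18.8% of all genes higher in medulla and 18.7% lower. The median difference of the members was 0.25, and that of all genes was -0.01. All 3 small leucine-rich proteoglycans, which decorate collagen fibrils, were higher in medulla.

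Biglycan (Bgn), a proteoglycan of the pericellular matrix, had a lowest, median and highest value of 12.28, 12.51 and 12.92 in control medulla, against 11.49, 11.72 and 12.15 in control cortex. The groups did not overlap, and the difference of 0.78 ± 0.10 was a 1.72-fold higher level (limma, adjusted p = 8.41e-09). Decorin (Dcn), which binds collagen fibrils and TGF-beta, had 11.83, 11.99 and 12.72 in control medulla, against 10.94, 11.35 and 12.25 in control cortex, a difference of 0.70 ± 0.14 (limma, adjusted p = 4.09e-05). Some decorin arrays of the groups overlapped, and a second decorin probe gave 0.84. Lumican (Lum), a regulator of fibril diameter, differed by 0.45 ± 0.12 (limma, adjusted p = 0.00218).

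Within the TGF-beta pathway the members did not all differ the same way. The ligand Tgfb2 had 7.78, 8.48 and 8.84 as its lowest, median and highest value in control medulla, against 7.54, 7.74 and 7.93 in control cortex. The Tgfb2 groups overlapped at their edges, and the difference was 0.67 ± 0.10, or 1.59-fold (limma, adjusted p = 3.13e-07). The receptor subunit Tgfbr2, which binds the ligand, was higher by 0.31 ± 0.07 (limma, adjusted p = 0.000514). With the outlying control array added, the Tgfbr2 difference was 0.14 and did not pass (limma, adjusted p = 0.384). Its signalling partner Tgfbr1 was lower, with 10.57, 10.97 and 11.34 in control medulla against 11.06, 11.18 and 11.67 in control cortex. Its difference was -0.28 ± 0.09 (limma, adjusted p = 0.0146), and another probe gave -0.18. Tgif1, a homeodomain protein that represses SMAD target genes, was higher by 0.45 ± 0.12 (limma, adjusted p = 0.0014). Tgfbi, a secreted adhesion protein named for its induction by TGF-beta, was higher by 0.26 ± 0.10 (limma, adjusted p = 0.0436). The Tgfbi difference turned to -0.18 with the outlying control array added (limma, adjusted p = 0.616), 9 of 17 single arrays ended the call when left out, and its other probe gave 0.06.

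Among the matrix proteins themselves, the fibrillar collagen genes Col5a1 and Col1a1 were higher in medulla by 0.39 ± 0.10 and 0.25 (limma, adjusted p = 0.00191 and 0.00563). The Col1a1 probe averaged 7.35 over the arrays used, close to the floor of 7.23, so the size of its difference is uncertain. With the outlying array added, Col5a1 differed by 0.25 and did not pass (limma, adjusted p = 0.113). Col3a1 differed by 0.41 ± 0.19 and did not pass (limma, adjusted p = 0.0774). Of the basement membrane collagens, Col15a1 was higher by 0.34 and Col18a1 by 0.19 ± 0.06 (limma, adjusted p = 0.00268 and 0.0154), whereas Col4a1 and Col4a2, the chains of the main basement membrane network, did not pass. A second Col18a1 probe gave -0.17, so the direction for Col18a1 depended on the probe. The cross-linking enzyme gene Lox was higher by 0.29 and the matricellular gene Thbs1 by 0.28 (limma, adjusted p = 0.00368 and 0.0025). Thbs1 did not reach the intensity floor on all 3 arrays of any cortex group. It entered the fit through its medulla values alone, which favoured a higher medulla level, so its call is not evidence of a difference.

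Genes for matrix turnover went both ways. Timp2, an inhibitor of matrix metalloproteinases, had 10.36, 10.75 and 11.07 in control medulla against 9.87, 10.15 and 10.46 in control cortex, a difference of 0.57 ± 0.11 (limma, adjusted p = 1.49e-05). The gelatinase gene Mmp2 had 8.40, 8.69 and 9.14 in control medulla against 7.81, 8.34 and 8.51 in control cortex, a difference of 0.43 ± 0.10 (limma, adjusted p = 0.000327). In both genes only the edges of the groups overlapped. Timp3, an inhibitor that stays bound to matrix, was lower in medulla, with 13.25, 13.66 and 13.89 against 13.56, 13.82 and 14.11 in control cortex. The Timp3 difference was -0.19 ± 0.06 (limma, adjusted p = 0.0156), and another probe gave -0.49. With the outlying control array added, the Timp3 difference turned to 0.12 (limma, adjusted p = 0.632), and leaving out cortex control 1 at 4.5 months or medulla control 1 at 1.5 months ended the call. P4ha1, the catalytic subunit of the prolyl hydroxylase that stabilises collagen helices, was lower by 0.15 ± 0.05 in medulla (limma, adjusted p = 0.0193). No other member passed below 0. The lowest of the members that did not pass, the lysyl oxidase-like gene Loxl1, differed by -0.17 ± 0.12 (limma, adjusted p = 0.285).

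**Figure D1:**
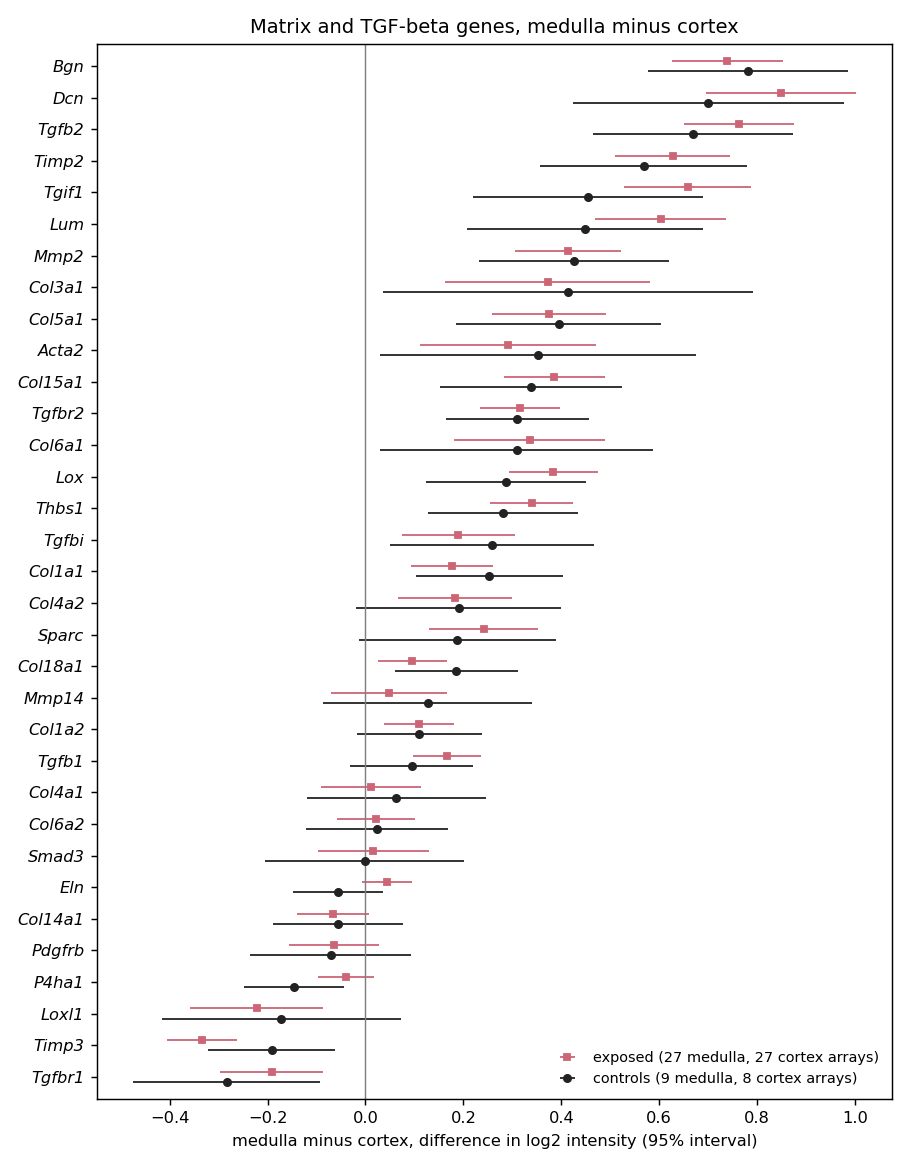
Difference in log2 intensity, medulla minus cortex, for each measured gene (down the page), with 95% intervals from limma. Squares are exposed arrays (27 medulla against 27 cortex) and circles are controls (9 medulla against 8 cortex); Bgn, Dcn and Tgfb2 lie farthest to the right in the controls, at 0.78, 0.70 and 0.67, and Tgfbr1 farthest to the left at -0.28.

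The tissues were compared among the exposed arrays too. With 27 medulla and 27 cortex arrays, 22 members were higher in medulla and 3 lower, where 29% of all genes were higher and 31.9% lower. Of the 18 members that passed in the controls, 17 passed in the exposed arrays with the same sign. The exception was P4ha1, which differed by -0.04. Thbs1, which entered the fit through its medulla values alone, is among the 22 and the 17. The exposed differences were 0.85 for Dcn, 0.76 for Tgfb2, 0.74 for Bgn and 0.66 for Tgif1. This comparison was added after the control values had been seen.

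Marker genes of several cell types moved with the same contrast. Macrophage markers (7 of 14 measured) averaged 8.23 to 9.56 in control medulla and 7.72 to 8.66 in control cortex, and all 7 were higher in medulla. Itgam and Fcgr1 from that list lay below the floor. Fibroblast and mural cell markers (13 of 16 measured) averaged 8.11 to 8.36 in control medulla and 7.87 to 8.22 in control cortex, with 5 higher and 1 lower. Endothelial markers (12 of 12 measured) averaged 9.60 to 9.89 in control medulla and 9.05 to 9.45 in control cortex, with 6 higher. In that comparison 37.4% of all genes passed an adjusted p of 0.05 in limma, and 45.2% an unadjusted p of 0.05. The part of these cell types in the members' differences was not tested.

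Other matrix genes, from a longer list that leaves out the members, also differed between the tissues. Of 47 measured among 84 listed, 22 were higher in medulla and 4 lower, with a median of 0.19. Among all genes 18.8% were higher and 18.7% lower. The highest were Plau, the urokinase-type plasminogen activator, at 1.51 ± 0.12, Fbln1, an elastic fibre and basement membrane glycoprotein, at 1.40 ± 0.13, and Tnc, the glycoprotein tenascin C, at 1.19 ± 0.12. Col27a1, a fibrillar collagen, was lower by 0.90 ± 0.09. Of 31 measured among 47 other genes of TGF-beta and bone morphogenetic protein (BMP) signalling, 11 were higher and 4 lower, with a median of 0.06. The activin antagonist Fst was higher by 1.35 ± 0.11, the inhibitor of differentiation Id4 by 1.33 ± 0.14 and the latent TGF-beta binding protein Ltbp1 by 1.06 ± 0.09. Id2, a further BMP target, was lower by 0.59 ± 0.20 and the ligand Bmp6 by 0.54 ± 0.10. All of these passed an adjusted p of 0.05 in limma, and no gene of either list passed in any comparison of doses or times.

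The main question of the design was what the absorbed dose did to these genes, and the answer for single genes was small. In the cortex at 3 Gy, averaged over the 3 times, Tgif1 fell and no other of the 31 measured members passed the test (limma; 0.219% of all genes passed). At 0.3 Gy and 10 Gy no member passed in the cortex (limma; 0.104% and 0.0231% of all genes passed), and in the medulla no member passed at 0.3, 3 or 10 Gy (limma; 0.023%, 0.0691% and 0.0115% of all genes passed). With no adjustment, at a p under 0.05, the cortex had 3 members higher and 1 lower at 0.3 Gy, 8 higher and 2 lower at 3 Gy, and 1 higher at 10 Gy, against 8.27%, 13.6% and 4% of all genes in either direction. The same counts in the medulla were 6, 4 and 2 members higher and 0 lower, against 8.21%, 5.59% and 4.52% of all genes.

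**Figure D2:**
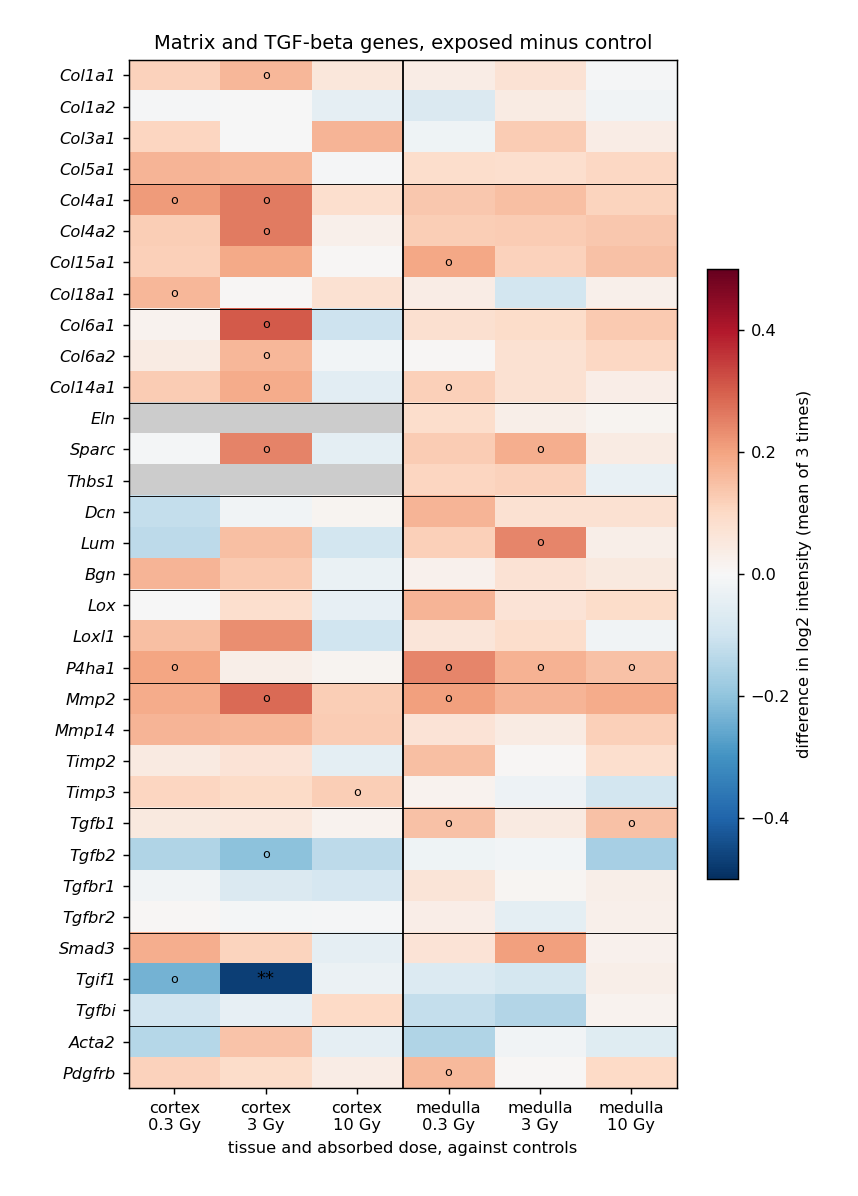
Exposed minus control difference in log2 intensity for each measured gene (down the page) in cortex and medulla at 0.3, 3 and 10 Gy (left to right), each the mean of the differences at 1.5, 3 and 4.5 months. A pair of asterisks marks an adjusted p under 0.05 in limma, which was met by Tgif1 in cortex at 3 Gy alone (-0.47), a small o marks an unadjusted p under 0.05, and grey marks a gene not measured in that tissue.

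Tgif1 was read on one probe above the floor. Its log2 intensities in the cortex at 3 Gy were 7.94, 7.99 and 7.80 at 1.5 months, against 8.28 and 8.23 in the controls of that time. They were 7.99, 7.92 and 8.30 at 3 months, against 8.17, 8.43 and 8.51 in controls, and 7.72, 7.60 and 7.90 at 4.5 months, against 8.29, 8.50 and 8.75 in controls. All 9 arrays at 3 Gy lay below the mean of the controls of their own time, and at 1.5 and 4.5 months the groups did not overlap. The averaged difference was -0.47 ± 0.10, a level 0.721 times that of the controls (limma, adjusted p = 0.0235). The difference was -0.35 ± 0.18 at 1.5 months, -0.30 ± 0.16 at 3 months and -0.77 ± 0.16 at 4.5 months, and at no single time did it pass (limma; adjusted p = 0.437 at 3 months and 0.0661 at 4.5 months). The averaged call was lost without any 1 of 10 single arrays, with adjusted p up to 0.0952 over all alternatives.

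Tgif1 did not follow the order of the doses. Its lowest, median and highest cortex values were 8.17, 8.36 and 8.75 in controls, 7.89, 8.10 and 8.42 at 0.3 Gy, 7.60, 7.92 and 8.30 at 3 Gy, and 7.98, 8.32 and 8.82 at 10 Gy. The 0.3 Gy difference from controls, -0.24 ± 0.10, did not pass (limma, adjusted p = 0.509). Set against each other, 10 Gy was higher than 3 Gy by 0.44 ± 0.09, or 1.36-fold (limma, adjusted p = 0.023; 0.611% of all genes passed), in 8 of 9 arrays, and no other member passed. That call was lost with the outlying control array added (limma, adjusted p = 0.22) and without 1 of 6 single arrays. In the medulla Tgif1 ranged over 8.53, 8.69 and 9.14 at 3 Gy against 8.51, 8.73 and 9.31 in controls, and these groups overlapped throughout. Of the other Tgif1 probes, all below the floor, 2 gave -0.03 and 0.03 for 3 Gy against controls in the cortex.

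The Tgif1 call is shown with one of 5 promoter windows of the gene in RefSeq (GRCm38.p6, chr17:70853483-70853782, minus strand, from 250 bases before to 50 after a transcript start, 5′ to 3′), since Tgif1 acts in the same pathway as SMAD proteins. Capitals mark CAGAC, the SMAD box, found 201 bases before the start. The window printed is that of the most upstream start. The Tgif1 windows at chr17:70851161-70851460 and chr17:70846728-70847027 held no SMAD box. Those at chr17:70851685-70851984 and chr17:70849741-70850040 held 2 and 1.

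Tgif1: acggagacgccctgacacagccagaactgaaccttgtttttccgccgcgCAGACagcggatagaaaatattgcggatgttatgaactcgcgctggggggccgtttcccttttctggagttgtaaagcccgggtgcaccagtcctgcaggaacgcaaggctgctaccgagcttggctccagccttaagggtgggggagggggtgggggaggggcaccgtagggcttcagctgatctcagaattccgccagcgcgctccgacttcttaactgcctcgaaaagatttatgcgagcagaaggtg

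This motif of 5 letters is common. On either strand, CAGAC stood in 17 of the 34 member windows counted, those of 26 members, and in 49.6% of all 32851 promoter windows. For every motif, the search left windows on chr18 out of the member windows but not out of all windows.

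**Figure D3:**
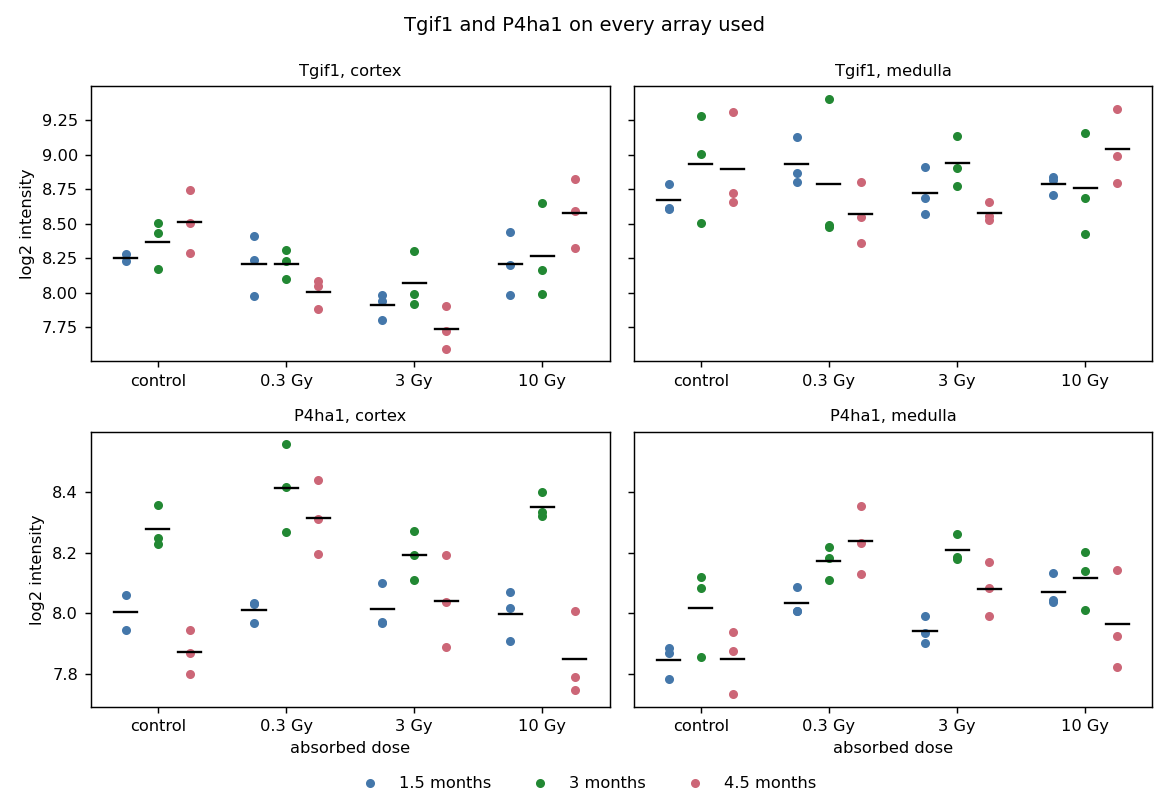
Log2 intensity of Tgif1 and P4ha1 on every array used, in cortex and medulla, by absorbed dose (control, 0.3, 3 and 10 Gy) and time (blue 1.5, green 3 and red 4.5 months). Points are arrays and bars are group means; in cortex the 9 Tgif1 points at 3 Gy lie between 7.60 and 8.30, and the P4ha1 points of 0.3 Gy at 4.5 months lie between 8.19 and 8.44, above the 3 controls of that time.

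None of the other TGF-beta genes of the cortex passed the adjusted test against controls at any dose, averaged over the times. The ligand Tgfb1, the form most studied in fibrosis, differed by 0.05, 0.05 and 0.02 at 0.3, 3 and 10 Gy, each with a 95% half-width of 0.12. The second ligand, Tgfb2, had 7.24, 7.52 and 7.85 at 3 Gy as its lowest, median and highest value, against 7.54, 7.74 and 7.93 in controls. The Tgfb2 groups overlapped in part, and the difference of -0.20 ± 0.08 did not pass (limma, adjusted p = 0.307). Tgfb2 was also below controls at 0.3 Gy, by -0.15 ± 0.08, and at 10 Gy, by -0.13 ± 0.08, and neither passed (limma, adjusted p = 0.671 and 0.998). The receptor gene Tgfbr1 differed by -0.07 ± 0.09 at 3 Gy on the probe used, while its other probe gave -0.33, and for 10 Gy against 3 Gy the probes gave -0.01 and 0.51. The Tgfbr1 probes thus disagreed.

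No collagen or other matrix gene passed the adjusted test in the cortex at 3 Gy. The 31 members had a median difference of 0.11, that of all genes was 0.01, and 23 members lay above 0, against 53.9% of all genes. At an unadjusted p under 0.05, 32.3% of the members and 13.6% of all genes differed in either direction. The 8 higher members were the type VI collagen genes Col6a1 and Col6a2, the fibril-associated collagen gene Col14a1, Col1a1, Col4a1, Col4a2, Mmp2, and Sparc, a collagen-binding glycoprotein of remodelling tissue. All 3 genes of the group of other collagens and 2 of 4 basement membrane collagens were among them, with group medians of 0.18 and 0.22. None of the 4 TGF-beta ligands and receptors was.

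Mmp2, which degrades basement membrane collagen, had 8.34, 8.60 and 8.91 in cortex at 3 Gy as its lowest, median and highest value, against 7.81, 8.34 and 8.51 in controls. In 8 of 9 arrays Mmp2 lay above the mean of the controls of its time, and the difference was 0.28 ± 0.09 (limma, adjusted p = 0.205). Col6a1, a chain of the microfibrillar type VI collagen, had 8.64, 9.23 and 9.90 at 3 Gy against 8.30, 8.99 and 9.38 in controls. The Col6a1 groups overlapped over most of their range, with a difference of 0.31 ± 0.15 (limma, adjusted p = 0.363). Sparc had 10.35, 10.83 and 11.42 at 3 Gy against 10.31, 10.58 and 10.92 in controls, a difference of 0.25 ± 0.11 that did not pass either (limma, adjusted p = 0.342).

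Col4a1 and Col4a2 encode chains that are built into the same collagen molecule, and their differences in cortex at 3 Gy were of like size. Whether the genes vary together over the arrays was not tested. Col4a1 had 11.14, 11.52 and 11.78 in cortex at 3 Gy, against 10.90, 11.21 and 11.57 in controls. Col4a2 had 9.90, 10.50 and 10.66 at 3 Gy, against 9.86, 10.03 and 10.52 in controls. Both differences were 0.26, with standard errors of 0.10 and 0.12, and neither passed (limma, adjusted p = 0.268 for Col4a1 and 0.336 for Col4a2). At 3 Gy 8 of 9 arrays for Col4a1 and 7 of 9 for Col4a2 lay above the mean of their controls. The genes lie head to head on chromosome 8, with RefSeq start sites 21 bases apart. Their promoter windows (GRCm38.p6, Col4a1 at chr8:11312777-11313076 on the minus strand and Col4a2 at chr8:11312555-11312854 on the plus strand, 5′ to 3′) are shown because these letters are common to both genes. Capitals mark the 78 bases that the windows share, read on opposite strands.

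Col4a1: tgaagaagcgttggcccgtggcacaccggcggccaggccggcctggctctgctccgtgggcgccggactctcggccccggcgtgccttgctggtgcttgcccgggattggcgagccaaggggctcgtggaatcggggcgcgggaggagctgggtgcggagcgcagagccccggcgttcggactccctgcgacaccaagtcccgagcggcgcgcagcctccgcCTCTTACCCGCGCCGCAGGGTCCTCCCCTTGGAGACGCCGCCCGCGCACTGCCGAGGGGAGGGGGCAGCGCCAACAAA

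Col4a2: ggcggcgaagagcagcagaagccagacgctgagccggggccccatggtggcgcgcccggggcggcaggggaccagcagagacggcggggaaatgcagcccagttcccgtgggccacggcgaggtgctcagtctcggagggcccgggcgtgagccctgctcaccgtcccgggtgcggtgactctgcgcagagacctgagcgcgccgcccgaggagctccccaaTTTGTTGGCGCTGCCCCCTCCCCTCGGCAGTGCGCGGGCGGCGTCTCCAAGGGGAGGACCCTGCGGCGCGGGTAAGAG

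GGGCGG, the GC box bound by Sp1-type factors, stood on either strand in 58.8% of member windows and in 35.7% of all windows. The other motifs searched on both strands were CCAAT, in 38.2% of member windows and 37.4% of all windows, and TATAAA, in 11.8% and 13.6%. None of the matches in capitals in the windows printed here overlapped a match of another motif. A match describes the letters of a window and not a bound site.

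At 10 Gy the members of the cortex had a median difference from controls of -0.01, and 14 of 31 lay above 0, against 49.5% of all genes. Against 3 Gy, the 10 Gy arrays had 6 members lower at an unadjusted p under 0.05 (22.8% of all genes differed at that threshold in either direction), with a median of -0.12 over the members and -0.02 over all genes. The lowest were Col6a1 at -0.41 ± 0.14, Loxl1 at -0.33 ± 0.14, Sparc at -0.30 ± 0.11 and Col14a1 at -0.24 ± 0.07, none past the adjusted test (limma, adjusted p = 0.105, 0.16, 0.12 and 0.0728). Against 0.3 Gy, the 10 Gy arrays had no member past the adjusted test (limma; 0.0461% of all genes passed), and 2 members higher and 3 lower at an unadjusted p under 0.05 (6.55% of all genes). The highest members at 10 Gy against controls were the fibrillar collagen Col3a1 at 0.17 ± 0.15, the membrane-bound protease Mmp14 at 0.13 ± 0.11 and Timp3 at 0.12 ± 0.06, and the lowest were Tgfb2, Col6a1 and Loxl1, the last pair at -0.10 ± 0.15 each. Adjusted p was 0.998 for each of these in limma.

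At 0.3 Gy the cortex had a member median of 0.11, with 21 of 31 above 0, against a median of 0.01 and 53.1% above 0 for all genes. The highest members were Col4a1 at 0.21 ± 0.10, P4ha1 at 0.20 ± 0.05 and Mmp2 at 0.19 ± 0.09, and none passed (limma, adjusted p = 0.562, 0.183 and 0.606). The smooth muscle actin gene Acta2, a mark of myofibroblasts and of vessel walls, was lowest beside Tgif1 and Tgfb2, at -0.14 ± 0.19 (limma, adjusted p = 0.916). The median of 0.11 rested on leaving out the outlying control array: with it, the median was -0.00.

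P4ha1 rose in the cortex at 0.3 Gy at 4.5 months, the one call among the members at single times. Its values there were 8.19, 8.31 and 8.44, against 7.95, 7.80 and 7.87 in the controls of that time. The groups did not overlap, and the difference was 0.44 ± 0.09, or 1.36-fold (limma, adjusted p = 0.0282; 0.185% of all genes passed). At 3 months P4ha1 had 8.56, 8.27 and 8.42 at 0.3 Gy against 8.25, 8.36 and 8.23 in controls, and at 1.5 months 8.03, 7.97 and 8.03 against 7.95 and 8.06, with overlap at both times. The call held in 9 of 17 alternatives, with adjusted p between 0.0214 and 0.316. It was lost without any 1 of the 3 controls of that time, and without exposed array 2 or 3. The remaining single times gave no call among the members in limma. At 1.5 and 3 months, 0% and 0.0231% of all cortex genes passed at 0.3 Gy. At 1.5, 3 and 4.5 months, 0.0115%, 0.0461% and 0.0346% passed at 3 Gy and 0% each at 10 Gy. In the medulla the same shares were 0%, 0.0576% and 0.0691% at 0.3 Gy, 0%, 0.0461% and 0.0115% at 3 Gy, and 0%, 0% and 0.0115% at 10 Gy.

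The single times gave small counts of members at an unadjusted p under 0.05, mostly higher than controls. In the cortex at 1.5, 3 and 4.5 months they were 1, 1 and 5 of 31 at 0.3 Gy, against 3.14%, 5.92% and 9.24% of all genes. At 3 Gy they were 0, 2 and 6, against 2.46%, 12.5% and 10.6% of all genes. At 10 Gy they were 0, 1 and 0, against 3.32%, 3.37% and 4.35%. Not all of these cortex members were higher. At 4.5 months 2 were higher and 3 lower at 0.3 Gy, and 4 higher and 2 lower at 3 Gy. The 1 member at 10 Gy and 3 months was lower. In the medulla they were 4, 5 and 5 of 33 at 0.3 Gy, against 4.85%, 8.52% and 7.2% of all genes, and 1, 7 and 4 at 3 Gy, against 4.76%, 10.5% and 6.32%. At 10 Gy they were 2, 4 and 0, against 3.77%, 6.37% and 5.04%. The highest share, 7 of 33, was that of the medulla at 3 Gy and 3 months, where all 7 were higher than controls.

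P4ha1 was also the member farthest from controls, by its test, in the medulla. At 0.3 Gy its values were 8.09, 8.01 and 8.01 at 1.5 months, 8.18, 8.22 and 8.11 at 3 months, and 8.23, 8.13 and 8.35 at 4.5 months. The controls had 7.87, 7.89 and 7.78 at 1.5 months, 7.85, 8.08 and 8.12 at 3 months, and 7.73, 7.88 and 7.94 at 4.5 months. All 9 exposed arrays lay above the mean of the controls of their time, and at 1.5 and 4.5 months the groups did not overlap. The averaged difference, 0.24 ± 0.05, lay just beyond the threshold (limma, adjusted p = 0.0517). P4ha1 had 7.73, 7.88 and 8.12 as its lowest, median and highest value in control medulla, 8.01, 8.13 and 8.35 at 0.3 Gy, 7.90, 8.08 and 8.26 at 3 Gy, and 7.82, 8.04 and 8.20 at 10 Gy. The differences from controls at 3 and 10 Gy were 0.17 ± 0.05 and 0.15 ± 0.05 and did not pass (limma, adjusted p = 0.392 and 0.931). At 3 Gy all 9 arrays lay above their controls' mean.

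The promoter window of P4ha1, a gene induced by low oxygen, is given for its call in the cortex at 0.3 Gy and 4.5 months (RefSeq, GRCm38.p6, chr10:59323046-59323345, plus strand, 5′ to 3′). Capitals mark CACGT, the reverse complement of ACGTG, the core of the hypoxia response element, 16 bases before the start. On either strand, ACGTG stood in 23.5% of member windows and 19.6% of all windows.

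P4ha1: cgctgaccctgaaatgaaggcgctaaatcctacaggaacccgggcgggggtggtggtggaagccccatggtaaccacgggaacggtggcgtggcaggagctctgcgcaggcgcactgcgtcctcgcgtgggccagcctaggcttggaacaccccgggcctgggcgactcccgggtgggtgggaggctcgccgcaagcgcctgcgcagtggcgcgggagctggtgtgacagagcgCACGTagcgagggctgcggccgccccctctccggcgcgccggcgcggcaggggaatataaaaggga

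The other dose differences in the medulla were small and mostly above 0, and none passed the adjusted test. The member medians were 0.08, 0.07 and 0.04 at 0.3, 3 and 10 Gy, against 0.01, 0.00 and 0.01 for all genes. Above 0 lay 27, 26 and 26 of 33 members, against 53.9%, 51.0% and 53.6% of all genes. At 0.3 Gy, Mmp2 differed by 0.20 ± 0.10 and Col15a1, a collagen of the outer basement membrane, by 0.19 ± 0.09 (limma, adjusted p = 0.579 and 0.557). At 3 Gy, Lum differed by 0.24 ± 0.10, the TGF-beta transducer Smad3 by 0.21 ± 0.08 and Sparc by 0.18 ± 0.08, and none passed (limma, adjusted p = 0.763, 0.763 and 0.788). At 10 Gy, Mmp2 differed by 0.18 ± 0.10 and Tgfb1 by 0.15 ± 0.06 (limma, adjusted p = 0.999 each).

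On the lower side in the medulla, Acta2 differed by -0.15 ± 0.12 and Col1a2 by -0.07 ± 0.07 at 0.3 Gy, and Tgfbi by -0.12 ± 0.10 at 0.3 Gy and -0.14 ± 0.10 at 3 Gy. Col18a1, the source of endostatin, differed by -0.09 ± 0.06 at 3 Gy, and Tgfb2 by -0.17 ± 0.11 and Timp3 by -0.09 ± 0.07 at 10 Gy. None of these passed (limma, adjusted p between 0.767 and 0.999). The interval of each averaged dose difference bounds what could be seen. The 95% half-widths of the members ran between 0.11, for P4ha1, and 0.38, for Acta2, in the cortex, and between 0.10, for P4ha1, and 0.40, for Col3a1, in the medulla. The receptor Tgfbr2 stayed between -0.05 and 0.03 in both tissues at every dose, with half-widths of 0.14 and 0.15. Col1a2, the partner chain of Col1a1, lay between -0.07 and 0.04, with half-widths of 0.12 and 0.13. Bgn differed by 0.17, 0.13 and -0.03 in cortex and by 0.02, 0.07 and 0.05 in medulla at 0.3, 3 and 10 Gy. Eln, the gene of elastin, was measured in medulla alone and differed by 0.09, 0.03 and 0.01, each with a half-width of 0.10. The Eln probe averaged 7.20 over the arrays used, at the floor, so the same limit holds for it. Pdgfrb, the growth factor receptor of pericytes and fibroblasts, differed by 0.16 in medulla at 0.3 Gy (limma, adjusted p = 0.47), and by between 0.01 and 0.12 in the other comparisons with controls.

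Between doses in the medulla, no member passed for 10 Gy against 0.3 Gy or against 3 Gy, and 0% of all genes did (limma). The members below an unadjusted p of 0.05 counted 0 and 2, where all genes gave 7.06% and 8.86%.

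Whether the dose response differed between tissues was tested as a difference of differences. No member and no gene at all passed at 0.3, 3 or 10 Gy (limma; 0% of all genes). The members below an unadjusted p of 0.05 counted 1, 2 and 1, against 5.73%, 2.56% and 4.02% of all genes. At 3 Gy the medulla minus cortex difference of the Tgif1 response was 0.38 ± 0.16, so the Tgif1 call in the cortex alone was not shown to be a difference between the tissues. The dose response also did not differ between times for any member by an F test in limma, where 0.0231% of cortex and 0% of medulla genes passed. At an unadjusted p under 0.05, 4 members did in the cortex and 1 in the medulla, against 5.55% and 5.85% of all genes. P4ha1 had the lowest unadjusted p of the members in the cortex, 0.0088.

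Beside the 3 Gy response of the cortex, the lists of other genes had these values. Of all genes, 0.219% passed in limma and 13.6% were at an unadjusted p under 0.05 in either direction. Of 44 other matrix genes measured, none passed in limma, 9 were higher and 1 lower at an unadjusted p under 0.05, and the median was 0.07. Of 30 other TGF-beta and BMP genes, none passed in limma, and 4 were higher and 4 lower at that threshold. Marker medians were 0.01 for fibroblast and mural cells, 0.10 for endothelial cells and 0.03 for macrophages. Macrophage markers averaged 7.72 to 8.58 in cortex at 3 Gy and 7.72 to 8.66 in controls.

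The comparison of 4.5 with 1.5 months gave calls for Tgfbi, Col1a1 and Col18a1. Over the 9 exposed cortex arrays at each time, Tgfbi was the one member of 31 that passed (limma; 0.496% of all genes passed). It had 8.50, 9.08 and 9.45 at 4.5 months as its lowest, median and highest value, against 8.18, 8.54 and 8.75 at 1.5 months. In 8 of 9 arrays Tgfbi lay above the mean of the 9 exposed arrays at 1.5 months, the groups overlapped in part, and the difference was 0.50 ± 0.09, or 1.42-fold (limma, adjusted p = 0.00975). The call held without each single array and was lost when the outlying cortex control was added to the fit (limma, adjusted p = 0.989). By dose, the 1.5, 3 and 4.5 month arrays of Tgfbi had 8.74, 8.38 and 8.74, then 8.35, 8.29 and 8.66, then 8.50, 8.88 and 9.08 at 0.3 Gy. At 3 Gy they had 8.54, 8.30 and 8.18, then 8.65, 8.33 and 8.15, then 9.39, 9.10 and 9.45, and there the 4.5 month arrays stood clear of the rest. At 10 Gy they had 8.75, 8.69 and 8.51, then 9.02, 8.74 and 8.68, then 9.22, 8.82 and 8.92.

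The unexposed cortex gave a difference of the same sign for Tgfbi. Control Tgfbi values were 8.86, 9.16 and 9.32 at 4.5 months, against 8.53 and 8.50 at 1.5 months, without overlap. That difference, 0.60 ± 0.18, did not pass in a group of 3 against 2 arrays (limma, adjusted p = 0.266; no member and 0.0115% of all genes passed). At an unadjusted p under 0.05, 2 members were higher and 2 lower in the exposed cortex, against 13.5% of all genes, and 2 were higher and 1 lower in the control cortex, against 9.26%. Exposed medulla arrays gave 0.33 ± 0.10, with all 9 above the mean at 1.5 months, and control medulla arrays 0.57 ± 0.18 (limma, adjusted p = 0.226 and 0.204). Another Tgfbi probe gave 0.15 in the exposed cortex and 0.19 in the control cortex. The Tgfbi window (RefSeq, GRCm38.p6, chr13:56609336-56609635, plus strand, 5′ to 3′) is shown because the gene carries the name of its response to TGF-beta. Capitals mark GTCTG, the SMAD box CAGAC on the other strand, 239 and 85 bases before the start.

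Tgfbi: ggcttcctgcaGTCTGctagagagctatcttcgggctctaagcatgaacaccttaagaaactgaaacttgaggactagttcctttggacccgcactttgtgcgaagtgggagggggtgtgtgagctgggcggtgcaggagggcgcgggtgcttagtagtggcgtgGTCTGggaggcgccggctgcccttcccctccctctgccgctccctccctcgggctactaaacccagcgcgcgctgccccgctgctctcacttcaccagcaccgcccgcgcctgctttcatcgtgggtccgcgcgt

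**Figure D4:**
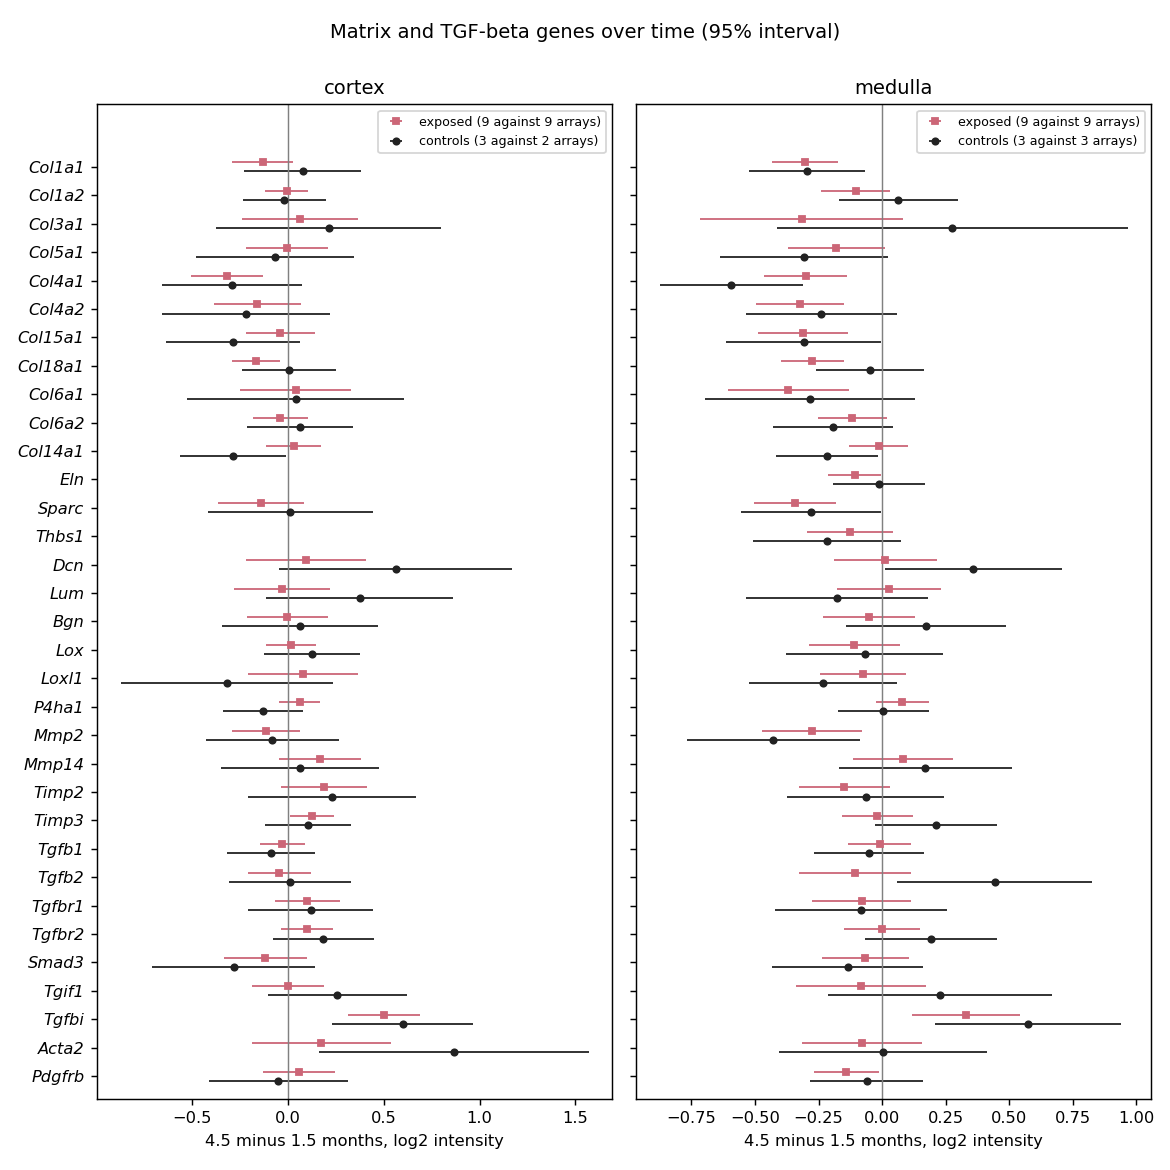
Difference in log2 intensity between 4.5 and 1.5 months for each measured gene (down the page), cortex left and medulla right, with 95% intervals from limma. Squares are exposed arrays (9 against 9) and circles are controls (3 against 2 in cortex, 3 against 3 in medulla); Tgfbi lies to the right of 0 in all 4 sets and Col4a1 to the left, and in medulla 28 of the 33 exposed squares lie below 0.

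Macrophage markers were also compared between these times. Their mean level was 7.86 to 8.58 in exposed cortex at 4.5 months and 7.72 to 8.06 at 1.5 months, and 5 of 7 were higher at an unadjusted p under 0.05, of which 2 passed the adjusted test. Of all genes in the exposed cortex, 13.5% were at that unadjusted threshold and 0.496% passed the adjusted test in limma. In the control cortex 6 of 7 were higher at an unadjusted p under 0.05 and 1 passed, against 9.26% and 0.0115% of all genes. In exposed medulla the mean level was 8.67 to 9.30 at 4.5 months and 8.10 to 9.03 at 1.5 months. The part of macrophages in the Tgfbi values was not tested.

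In the exposed medulla, the collagen genes Col1a1 and Col18a1 fell with time and no other of the 33 members passed (limma; 0.184% of all genes passed). Without adjustment, 10 members were lower and 1 higher at a p under 0.05 (8.57% of all genes), and 28 lay below 0. Of all genes, 49.4% lay above 0. The median was -0.11 over the members and 0.00 over all genes. Col1a1, the main fibrillar collagen of scar tissue, had 7.13, 7.27 and 7.52 at 4.5 months as its lowest, median and highest value, against 7.44, 7.57 and 7.89 at 1.5 months. All 9 arrays lay below the mean at 1.5 months, and the groups overlapped at their edges. The Col1a1 difference was -0.30 ± 0.06, a level 0.810 times the earlier one (limma, adjusted p = 0.0365). The intensity floor was 7.23, so the lowest Col1a1 value at 4.5 months lay below it and the median just above. Differences are compressed near the floor, so the size of the Col1a1 fall is uncertain. Col18a1 had 11.72, 12.14 and 12.25 at 4.5 months, against 12.12, 12.46 and 12.51 at 1.5 months. Again all 9 arrays lay below the earlier mean, and the difference was -0.27 ± 0.06 (limma, adjusted p = 0.0447). The second Col18a1 probe gave -0.08. The calls held in 13 of 27 alternatives for Col1a1 and 11 of 28 for Col18a1, and 12 and 14 single arrays each ended the call when left out.

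Of the 4 basement membrane collagens, Col18a1 alone passed in the exposed medulla. All 4 were lower at an unadjusted p under 0.05, which 8.57% of all genes met in either direction, with differences between -0.32 and -0.27. Col4a1 had 11.19, 11.29 and 11.52 at 4.5 months, against 11.31, 11.63 and 12.13 at 1.5 months, a difference of -0.30 ± 0.08 (limma, adjusted p = 0.123). Its partner Col4a2 differed by -0.32 and Col15a1 by -0.31 (limma, adjusted p = 0.114 and 0.131). In 9 of 9 arrays Col4a1 lay below the mean at 1.5 months. Sparc had 10.39, 10.77 and 10.95 at 4.5 months, against 10.87, 11.10 and 11.28 at 1.5 months, with little overlap and a difference of -0.34 ± 0.08 (limma, adjusted p = 0.0579). Col6a1 differed by -0.37 and Mmp2 by -0.28 (limma, adjusted p = 0.23 and 0.308). The 3 small proteoglycans had a median of 0.01, and none was at that threshold.

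The control medulla was followed over the same times. Control Col4a1 values were 10.94, 10.96 and 11.28 at 4.5 months, against 11.87, 11.56 and 11.53 at 1.5 months, without overlap. The difference was -0.59 ± 0.14 (limma, adjusted p = 0.0929). Control Col1a1 had 7.24, 7.35 and 7.55 at 4.5 months, against 7.89, 7.60 and 7.52 at 1.5 months, a difference of -0.29 (limma, adjusted p = 0.283). No member passed in the control medulla (limma; 0.0346% of all genes passed), while 3 were higher and 6 lower at an unadjusted p under 0.05 (12.7% of all genes). Control Col18a1 values were 12.34, 12.01 and 12.39 at 4.5 months against 12.40, 12.30 and 12.18 at 1.5 months, and these overlapped. In the cortex over time, exposed Col4a1 differed by -0.32 ± 0.09 and did not pass (limma, adjusted p = 0.111), and control Acta2 differed by 0.87 ± 0.34 (limma, adjusted p = 0.405).

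**Figure D5:**
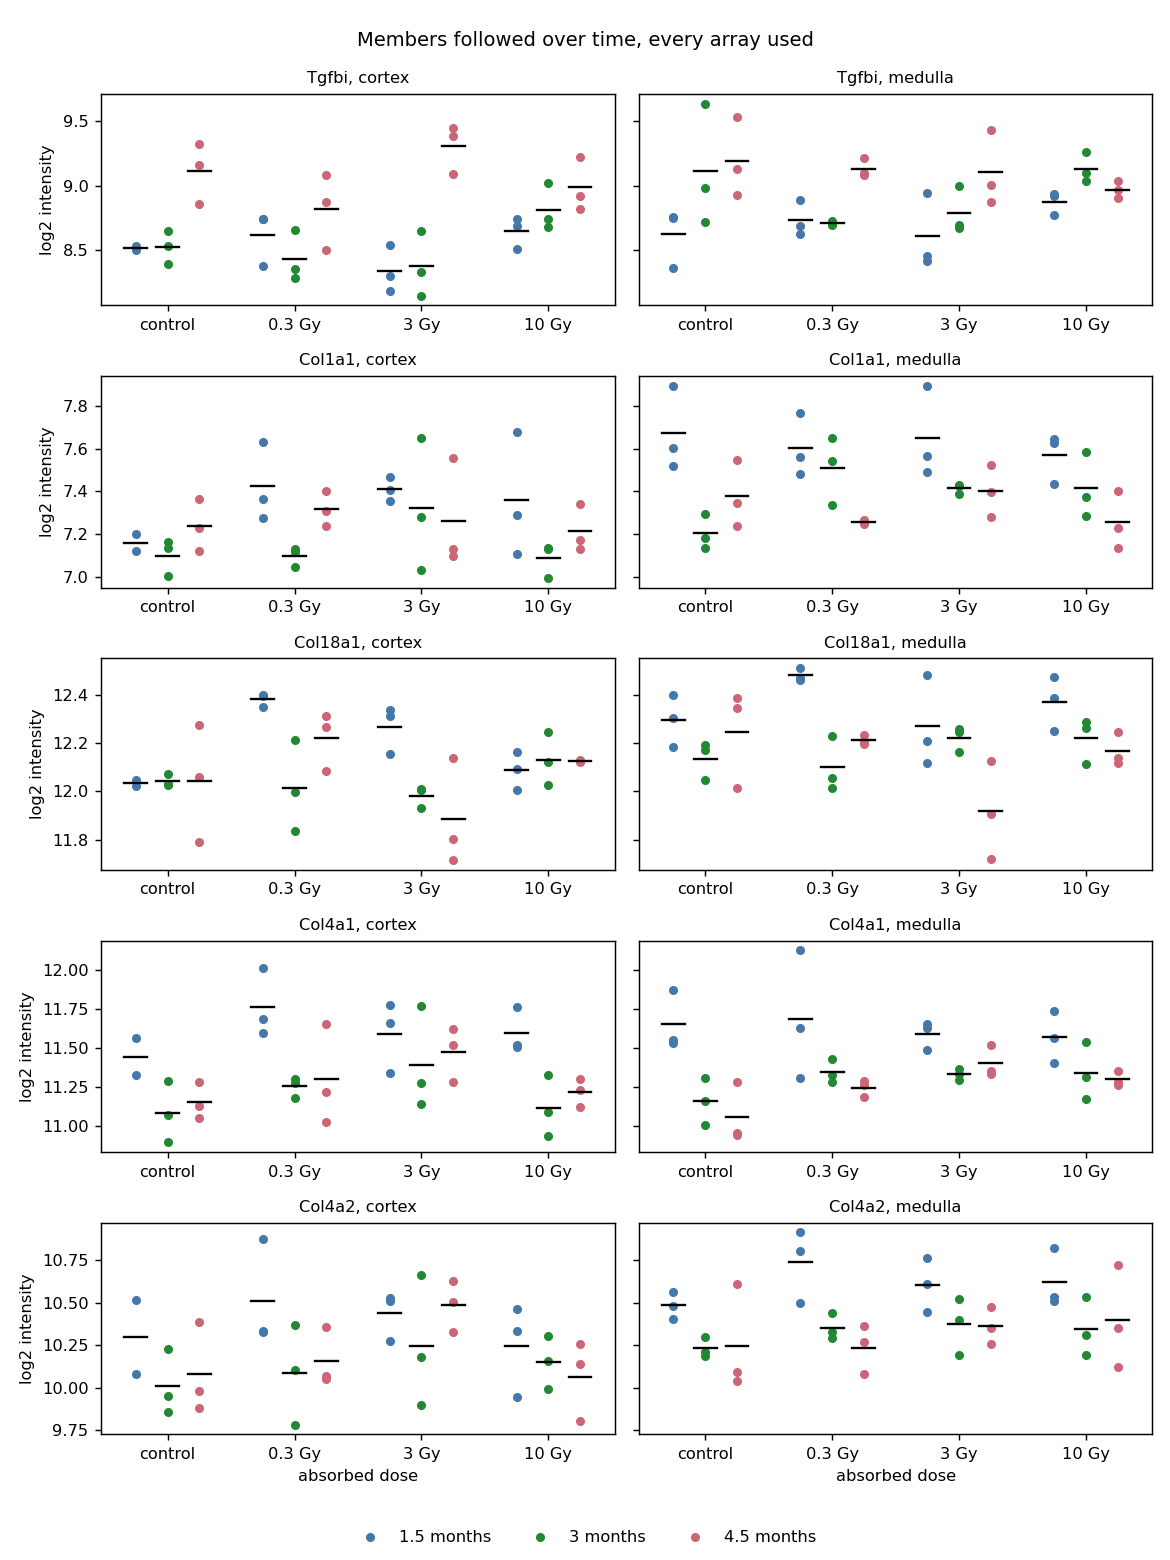
Log2 intensity on every array used for Tgfbi, Col1a1, Col18a1, Col4a1 and Col4a2 (top to bottom), cortex left and medulla right, by absorbed dose and time (blue 1.5, green 3 and red 4.5 months). Points are arrays and bars are group means; the 4.5 month Tgfbi points at 3 Gy in cortex lie between 9.10 and 9.45, above all other 3 Gy points there, and Col4a1 in medulla is mostly highest at 1.5 months, in controls too.

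Among markers beside the medulla time course, fibroblast and mural cell markers averaged 8.16 to 8.31 at 4.5 months and 8.14 to 8.45 at 1.5 months in exposed medulla, with 4 of 13 lower at an unadjusted p under 0.05 and a median of -0.09. From that list Cnn1 and Gli1 lay below the floor. Endothelial markers had a median of -0.09 and none of 12 at that threshold. Of 46 other matrix genes measured, none passed in limma, 13 were lower and 2 higher at that threshold, and the median was -0.06. Of all genes, 0.184% passed and 8.57% were at that threshold in either direction. The part of these cell types in the collagen values was not tested.

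Of the genes below the floor, Col5a2, a fibrillar collagen, reached an intensity of 150 on 1 array and Postn, a matricellular protein of injured tissue, on 0. The better of the Timp1 probes reached it on 17 arrays and Tagln, a smooth muscle protein, on 11, never on all 3 of a group. For these genes a change was not detectable at this signal.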

How the data were processed

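Total RNA of mouse kidney cortex and medulla was extracted with the RNeasy Lipid Tissue Mini Kit and labelled by the standard Illumina protocol, per the labels' protocols. The series table holds the authors' deposited intensities, 1 value per probe and array on a linear scale for 25697 probes and 72 arrays. The sorted columns differed by at most 1.26, so the deposited intensities are quantile-normalized, and whether background was subtracted is not given in the sources used here. The lowest intensity was 95.3 and the array medians lay near 143, so dim probes, close to these values, show compressed differences. A second, non-normalized table has 144 columns named by tissue and number that could not be tied to a sample, and it was not used.

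The deposited intensities were taken to log2 with no offset. Probes were named from the platform's probe table: 23978 probes had 1 symbol, 0 several and 1719 none. The brightest probe per gene was kept where it reached 150 on all 3 arrays of a group, which left 8669 genes in cortex, 8682 in medulla and 9000 in the joint fit. Differences were fitted with limma 3.58.1 (R 4.3.3) on group means, with eBayes and an intensity trend, on 35 cortex, 36 medulla or 71 arrays, with Benjamini-Hochberg adjustment. Averaged dose differences weight the 3 times equally. The fits were also run on simulated data in which 200 genes had been changed, with noise drawn independently for each gene and array. The outcome is not given here, and no result above rests on it. The number of arrays limits the precision.

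The members and lists were chosen with earlier results of these data known. Text names a member that passed any comparison, the 3 largest differences each way in averaged dose comparisons, the 5 largest each way between control tissues, and listed genes that passed, up to 3 each way. The alternatives were another filter, probe rule, background, offset, array set, weighting, variance trend and replicate block, and leaving out each array. Replicate numbers were checked for pairing: the median correlation of deviations between arrays of different groups with the same number was -0.02 in cortex and -0.03 in medulla, and 63 of 187 and 74 of 198 pairs were over 0.1. Between cortex and medulla of one dose, time and number it was 0.14, with 20 of 35 pairs over 0.1. Pairing was taken as present only where every pair was over 0.1, so the arrays were not treated as paired. That rule is strict and cannot show that cortex and medulla arrays of one number are unpaired.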

Additional observations from a re-analysis of the deposited data

Results flagged for a closer look

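The cortex control array that was left out, number 3 at 1.5 months, stood apart over genes of every kind, members included. Of the 33 measured members, 13 lay above all 35 other cortex arrays, 6 below all of them and 14 within their range. Of all 9000 genes, 32.0% lay above and 34.9% below all 35, so the members' share outside the range was not above that of all genes. Of the members, 4 were more than 1 above the highest other cortex array on the log2 scale and 2 more than 1 below the lowest.

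Tgfbi stood highest, at 12.42 on this array against a mean of 8.52 on the other 2 controls of that time, a difference of 3.91. Bgn had 13.52 against 11.69, a difference of 1.83. Tgfb1 had 9.23 against 7.44, a difference of 1.79, and the receptor Tgfbr2 had 12.74 against 11.17, a difference of 1.57. Below the other controls were Timp3, at 11.04 against 13.82, and Col18a1, at 9.72 against 12.04. Erythroid and blood markers (7 of 14 measured) averaged 13.82 on this array and at most 10.03 on the other cortex arrays, and macrophage markers 10.74 and at most 8.66. Tubule markers were low: those of the proximal tubule averaged 7.66 against at least 11.40, those of the thick ascending limb and distal tubule 6.98 against at least 12.01, and those of the collecting duct 6.89 against at least 9.17. Podocyte markers averaged 8.27 against at least 9.72. Why the array stands apart was not tested.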

How the results depend on the processing

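Of 1342 alternative values of counts and medians, 1276 were labelled as unchanged. For a count this meant equal to the main count or different by a small factor, and for a median within the spread. Many of these counts were 0 and stayed 0, as at single times in the cortex at 10 Gy, so the share partly reflects counts of 0. For single genes, 591 of 678 alternatives kept the call. With the outlying control array added, the cortex 0.3 Gy median was -0.00218, the counts of members past the threshold were 0 for cortex 10 Gy against 3 Gy, for time in the exposed cortex and for cortex 0.3 Gy at single times, and the 3 Gy response difference between tissues had a median of 0.046. The medulla minus cortex difference in controls then turned sign for Tgfbi (-0.18, limma, adjusted p = 0.616) and Timp3 (0.12, limma, adjusted p = 0.632), and Tgfbr2 and Col5a1 did not pass (0.14 and 0.25, limma, adjusted p = 0.384 and 0.113). Array weights gave 4 for cortex 10 Gy against 3 Gy, 2 for time in the exposed cortex, 2 for cortex 3 Gy at single times, and 1 each for medulla 0.3 Gy averaged and at single times. Normexp with an offset of 50, and an offset of 50 after subtracting each array's minimum, each gave 1 for cortex 3 Gy at single times. No filter gave 0 for cortex 0.3 Gy at single times and 0 for time in the exposed medulla. Fits with only the compared arrays gave 0 for both of these and 0 for cortex 10 Gy against 3 Gy. A floor of 200, and the mean of all probes, each gave 1 for medulla 0.3 Gy and 1 for time in the exposed medulla, and a fit with no trend gave 1 for medulla 0.3 Gy. Fewer arrays or other genes tested are part of the construction of some of these, and the cause was otherwise not tested.

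Leaving out 1 array at a time gave 0 to 1 members for cortex 3 Gy averaged, 0 to 5 for cortex 10 Gy against 3 Gy, 1 to 2 for time in the exposed cortex, 0 to 1 for cortex 3 Gy at single times, 0 to 1 for cortex 0.3 Gy at single times, 0 to 1 for medulla 0.3 Gy, and 0 to 3 for time in the exposed medulla. The median for time in controls ran from -0.079 to 0.12 in cortex and from -0.18 to 0.00433 in medulla. The Tgif1 call at 3 Gy was lost without cortex 3 Gy number 3 at 1.5 months, numbers 1 or 2 at 3 months or number 2 at 4.5 months, and without control number 1 or 2 at 1.5 months, 2 or 3 at 3 months, or 2 or 3 at 4.5 months (limma, adjusted p up to 0.0952). The Tgif1 call for 10 Gy against 3 Gy was lost without 3 Gy number 3 at 1.5 months, 1 at 3 months or 2 at 4.5 months, or 10 Gy number 2 at 1.5 months, 3 at 3 months or 2 at 4.5 months (limma, adjusted p up to 0.0804). The Col1a1 call over time held only without medulla 3 Gy number 2 or 3 at 1.5 months or 2 at 4.5 months, 0.3 Gy number 3 at 1.5 months, or 10 Gy number 1 at 1.5 months or 3 at 4.5 months, and that of Col18a1 only without 3 Gy number 2 at 1.5 months or 3 at 4.5 months, or 10 Gy number 3 at 1.5 months or 2 at 4.5 months (limma, adjusted p up to 0.112 for both). Between control tissues, 9 of 17 arrays ended the Tgfbi call, which held without cortex number 3 at 3 months or 2 or 3 at 4.5 months, or medulla number 3 at 1.5 months, 1 or 2 at 3 months or 1 or 2 at 4.5 months (limma, adjusted p up to 0.178). There the P4ha1 call was lost without cortex number 2 at 1.5 months or medulla number 1 at 3 or 4.5 months, Timp3 without cortex number 1 at 4.5 months or medulla number 1 at 1.5 months, Col18a1 without cortex number 2 at 4.5 months, and Tgfbr1 without medulla number 2 at 3 months (limma, adjusted p up to 0.0806, 0.0644, 0.0644 and 0.0643).

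The arrays were not treated as paired by replicate number: not every pair of deviations correlated over 0.1, although 20 of 35 pairs of cortex and medulla arrays with one number did (median 0.14). With the replicate number as a block, the fits gave 1 member for cortex 3 Gy, with a median of 0.13, 3 for time in the exposed medulla and 18 for control medulla against cortex. A random block over the tissues, with a consensus correlation of 0.14, gave 20 for the last. The block changed no other count of calls by over 1.5 times.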
